A study of Mus musculus with 4 samples.

Results

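Collagens are the proteins of the muscle's connective tissue, and the genes of their chains were followed here in the tibialis anterior (TA) of young mice that had or had not trained on a treadmill. The members are the protein-coding genes of the table whose symbol is built as Col, a type number, a and a chain number, which gave 44 chains of 57180 genes. They fall into 11 fibrillar chains, 8 network-forming chains of types IV and VIII, 6 chains of type VI and 19 minor chains. The study used wild-type male C57BL/6J mice, aged 3 weeks when training began and 8 weeks when the muscle was taken. The exercise group had 5 days of familiarization, with sessions of 30 min and a speed rising from 8 to 12 m/min, and then 4 weeks of running at 12 m/min, 45 min daily and 5 days a week, while the control group stayed sedentary. RNA of 2 libraries per group was sequenced, and all values below are TPM, that is, transcript abundance corrected for transcript length and scaled to the same total in each library.

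A collagen molecule is built from 3 chains that wind into a triple helix. The fibrillar types I and III form the load-bearing fibers of tendon, epimysium and endomysium, type V regulates how wide those fibers grow, type IV forms the sheet of the basement membrane around each muscle fiber and capillary, and type VI forms beaded filaments that link this sheet to the fibers outside it. In muscle most collagen RNA is made by fibroblasts and fibro-adipogenic progenitors (FAPs), with contributions of tendon cells, endothelial cells, Schwann cells and, for some chains, the muscle fiber itself. In whole muscle, fewer cells of a type and less RNA per cell cannot be told apart.

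The classes also differ in what the chains carry beside the helix. The protein domains listed in the table include the collagen repeat in all 44 chains and in 32 other protein-coding genes. The propeptide domain that starts the assembly of fibrils (COLFI) was listed for the 11 fibrillar chains and for no other protein-coding gene. The C-terminal domain through which type IV chains join was listed for all 6 type IV chains, and the C1q domain for Col8a1, Col8a2 and Col10a1. The von Willebrand factor A domain, a module that binds other matrix proteins, was listed for all 6 chains of type VI and for 6 minor chains. Only Col15a1 and Col18a1 carried endostatin, a fragment known to inhibit the growth of vessels when it is cut from the chain. The helix repeat alone was listed for 9 chains, among them the transmembrane chains Col13a1, Col17a1, Col23a1 and Col25a1.

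Promoter windows of RefSeq on GRCm38.p6, reaching from 250 bases before to 50 after a start site, were found for 35 of the 44 chains. The build of the expression values is GRCm39, so these positions describe the reference only. Col4a1 and Col4a2, the chains of the common type IV molecule, start back to back on chromosome 8, with start sites 21 bases apart on opposite strands, so that their windows share 78 bases. Col4a5 and Col4a6, also a back-to-back pair, start 1343 bases apart. The window of Col4a2 is shown because both genes of the pair are described together below, at chr8:11312555-11312854 on the plus strand, with the bases shared with Col4a1 in capitals. That of Col1a2, a chain of type I collagen, is shown as the counterpart from the chains that did not separate the groups, at chr6:4505368-4505667 on the plus strand, with CCAAT and its reverse complement ATTGG in capitals.
Col4a2: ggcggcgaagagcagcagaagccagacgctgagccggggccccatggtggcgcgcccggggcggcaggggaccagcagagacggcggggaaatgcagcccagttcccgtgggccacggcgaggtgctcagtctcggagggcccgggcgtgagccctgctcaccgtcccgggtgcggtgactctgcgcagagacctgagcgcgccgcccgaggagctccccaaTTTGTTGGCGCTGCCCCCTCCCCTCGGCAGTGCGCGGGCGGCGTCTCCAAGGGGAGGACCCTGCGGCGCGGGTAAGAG
Col1a2: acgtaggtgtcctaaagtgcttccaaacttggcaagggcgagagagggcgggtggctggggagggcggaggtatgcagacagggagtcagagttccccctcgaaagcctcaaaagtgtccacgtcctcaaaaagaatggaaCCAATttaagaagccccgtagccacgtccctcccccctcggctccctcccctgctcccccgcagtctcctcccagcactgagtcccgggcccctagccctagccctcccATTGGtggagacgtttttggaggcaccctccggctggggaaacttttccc
CCAAT, the box bound by the factor NF-Y, was searched on both strands. It stood once in the Col4a2 window, 32 bases before the annotated start site. In the Col1a2 window it stood 2 times, once 109 bases before the annotated start site and once on that site itself in reverse orientation. Where transcription starts in this muscle was not tested. It was present in 13 of the 38 windows of collagen chains (34.2%) and in 37.4% of all 32851 windows. G and C made up 73.7% of the Col4a2 window and 61% of that of Col1a2, against a median of 52.7% over all windows.

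The libraries differed in ways that touch every comparison. The fit used limma on log2(TPM + 1) over 13288 genes that reached 1 TPM in 2 or more libraries, and a gene was called at a Benjamini-Hochberg adjusted p under 0.05. Of these genes 55.3% were called higher in exercise and 6.19% lower, and their median log2 fold change was 0.53, while the 50 most abundant genes held 58.9 to 62.0% of the TPM in control and 45.3 to 50.1% in exercise libraries. After scaling to the median of ratios, which sets the typical gene to no change, 10.6% were higher and 16.8% lower. Quantile normalization gave 16.4 and 13.2%, and leaving out the 50 most abundant genes 25.9 and 11.4%. Xist, which coats and silences the inactive X chromosome, stood at 14.9 and 11.7 TPM in control and at 0 and 0.07 TPM in exercise libraries. Eif2s3y, a Y-linked gene, had 0.30 and 0 TPM in control and at 16.7 and 25.2 TPM in exercise libraries, and 3 other Y genes were higher in exercise but present in control libraries, with Ddx3y at 10.04 and 12.1 against 41.2 and 37.6 TPM, Uty at 3.75 and 4.03 against 11.6 and 11.1 TPM and Kdm5d at 1.81 and 2.67 against 7.45 and 8.50 TPM. The Xist values go against a study of male mice alone, the control libraries carry Y transcripts as well, and sex and exercise cannot be told apart here. Muscle fiber markers were abundant in every library, with Mylpf, the fast regulatory light chain, at 25881 to 29915.6 TPM and Tnnt3, fast troponin T, at 15070 to 32500.4 TPM. Of these 8 markers 5 were called lower in exercise. With 2 libraries per group an exact permutation test of a single value cannot give a p below 0.333, and no source says how many mice each library holds, so p-values here describe only the spread among these libraries, which may be technical.

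Of the 44 chains 27 could be tested, and 13 of them rose and 0 fell (48.1% higher, against 55.3% of all tested genes). In the same limma fit 14 chains were higher and 0 lower at an unadjusted p under 0.05, and limma without a trend or with robust settings also gave 13 and 0. Their median log2 fold change was 0.92, against 0.53 over all tested genes. No tested chain of types I, III and VI was among those called. After median-of-ratios scaling 4 chains were higher and 0 lower (14.8% against 10.6%), with a median of 0.31. Both exercise libraries were above both control libraries for 16 of the 27 chains and below them for 0, while this held for 72.8 and 10.5% of all tested genes. No tested chain had passed the filter through the exercise libraries alone. Without exercise replicate 2, 5 of the 13 calls remained, and these were Col8a1, Col18a1, Col24a1, Col25a1 and Col26a1 (18.5% of the tested chains, against 19.7% of all tested genes). Without control replicate 1 18 chains were called higher (66.7%, against 43.8% of all tested genes), and without control replicate 2 1 chain was called lower (3.70%, against 5.12%).

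**Figure D1:**
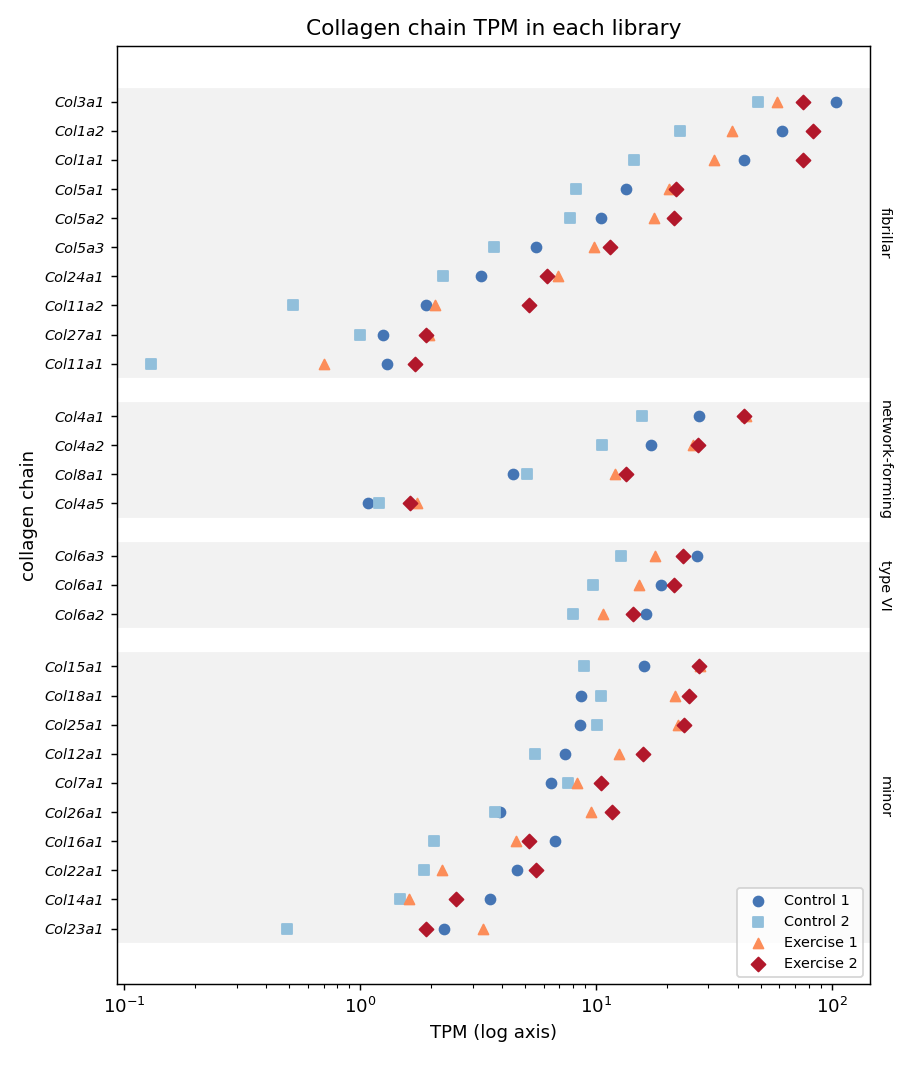
TPM of the 27 tested collagen chains (log axis), ordered by class and mean, with 1 symbol per library (Control 1 and 2, Exercise 1 and 2). Control 2 was the lowest library for every fibrillar and type VI chain shown. Col8a1, Col18a1, Col25a1 and Col26a1, picked by their calls, stood close together within each group and apart between groups, as a call requires.

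Type I and type III collagen were the most abundant chains and did not separate the groups. Col3a1 (ENSMUSG00000026043), which forms the homotrimer of type III and is typical of pliable tissue, was at 105 and 48.5 TPM in control and at 58.4 and 75.6 TPM in exercise libraries. The control libraries thus enclosed both exercise libraries. Its log2 fold change was -0.10 (95% interval -0.92 to 0.72, adjusted p = 0.81, limma). Col1a2 (ENSMUSG00000029661), the alpha2 chain of type I, was at 61.7 and 22.8 TPM in control and at 37.7 and 83.2 TPM in exercise libraries. Col1a1 (ENSMUSG00000001506), the alpha1 chain, of which the type I molecule holds a pair, was at 42.5 and 14.5 TPM in control and at 31.8 and 75.5 TPM in exercise libraries. For both chains the order of the libraries was the same, with exercise replicate 2 highest and control replicate 2 lowest, and the groups overlapped. The log2 fold change was 0.56 for Col1a2 (95% interval -0.67 to 1.79, adjusted p = 0.36, limma) and 0.95 for Col1a1 (95% interval -0.37 to 2.26, adjusted p = 0.17). These intervals include a rise of more than 2 on the log2 scale for Col1a1 and no change for all 3 genes. Without control replicate 1 Col1a1 was called higher, at 1.69 (adjusted p = 0.029, limma), and without control replicate 2 Col3a1 was called lower, at -0.65 (adjusted p = 0.029).

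Type V collagen, the partner that is built into type I fibers, was higher in exercise. Col5a1 (ENSMUSG00000026837) was at 13.5 and 8.23 TPM in control and at 20.4 and 21.8 TPM in exercise libraries. Col5a2 (ENSMUSG00000026042) was at 10.5 and 7.80 TPM in control and at 17.7 and 21.5 TPM in exercise libraries. Col5a3 (ENSMUSG00000004098), the rarer of the chains, was at 5.56 and 3.70 TPM in control and at 9.85 and 11.5 TPM in exercise libraries. For each of the chains both exercise libraries lay above both control libraries, which held for 72.8% of all tested genes. Type I overlapped between groups, though the log2 fold change of Col1a1 was of similar size (0.95). The log2 fold changes were 0.93 (SE 0.223, adjusted p = 0.013, limma) for Col5a1, 1.02 (SE 0.185, adjusted p = 0.0055) for Col5a2 and 1.07 (SE 0.201, adjusted p = 0.0061) for Col5a3. After median-of-ratios scaling none of them was called, at 0.34, 0.43 and 0.51, and none was called without exercise replicate 2.

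The other fibrillar chains were low. Col24a1, a fibrillar chain best known from developing bone, was at 3.26 and 2.24 TPM in control and at 6.88 and 6.19 TPM in exercise libraries (limma log2 change 1.02, adjusted p = 0.0057). It was not called under the median-of-ratios scaling (0.51, adjusted p = 0.14, limma), with quantile values and without the 50 highest genes. Col27a1, known from cartilage, was at 1.25 and 1.00 TPM in control and at 1.96 and 1.91 TPM in exercise libraries (0.47, adjusted p = 0.048). That call was lost with each library left out in turn and with other pseudocounts. Col11a1, a chain of the type XI fibers of cartilage and tendon, was at 1.30 and 0.13 TPM in control and at 0.70 and 1.71 TPM in exercise libraries, and Col11a2 at 1.90 and 0.52 against 2.08 and 5.22 TPM. Neither was called (adjusted p = 0.37 and 0.063). Col2a1, the main collagen of cartilage, stayed at 0.15 to 0.67 TPM and was not tested. The cartilage and bone markers Acan, Matn1, Sp7 and Ibsp were each at 0 in at least 1 library and nowhere above 0.11 TPM, whereas Sox9 and Runx2 of the same list were called higher, as given with the other markers.

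The basement membrane collagen rose as a pair. Col4a1 (ENSMUSG00000031502) was at 27.4 and 15.7 TPM in control and at 43.4 and 42.3 TPM in exercise libraries. Col4a2 (ENSMUSG00000031503), which shares its start region with Col4a1, was at 17.1 and 10.6 TPM in control and at 25.7 and 27.0 TPM in exercise libraries. The exercise libraries were nearly equal for both genes and lay above the higher control library, as they did for 72.8% of all tested genes. The log2 fold change was 1.01 (SE 0.244, adjusted p = 0.013, limma) for Col4a1 and 0.92 (SE 0.219, adjusted p = 0.013) for Col4a2, and after median-of-ratios scaling 0.39 and 0.31, not called. Both calls were lost without exercise replicate 2, where the limma values were 1.03 and 0.88 (adjusted p = 0.067 and 0.075), and that of Col4a1 also without exercise replicate 1 (adjusted p = 0.056). Their exons overlap by 22 bases on opposite strands in GENCODE vM21. The chains of the special basement membranes of kidney, lung and lens were rare. Col4a5 was at 1.08 and 1.20 TPM in control and at 1.75 and 1.62 TPM in exercise libraries (0.33, adjusted p = 0.12), and Col4a3, Col4a4 and Col4a6 reached at most 0.48 TPM. Col4a5 and Col4a6 lie on the X chromosome.

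Type VIII collagen, a short chain of vessel walls and of the corneal membrane, had one of the steadiest rises. Col8a1 (ENSMUSG00000068196) was at 4.45 and 5.09 TPM in control and at 12.0 and 13.4 TPM in exercise libraries. The spread within each group was far below the distance between them, which a call favors. Its log2 fold change was 1.25 (SE 0.150, adjusted p = 0.0029, limma), and it kept its call after median-of-ratios scaling at 0.69 (adjusted p = 0.013). Its partner Col8a2 was at 0.07 to 0.38 TPM in the 4 libraries.

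Type VI collagen did not separate the groups in any of its 3 tested chains. Col6a3 (ENSMUSG00000048126), the largest chain, was at 26.9 and 12.8 TPM in control and at 17.7 and 23.4 TPM in exercise libraries. Col6a1 (ENSMUSG00000001119) was at 18.8 and 9.68 TPM in control and at 15.2 and 21.5 TPM in exercise libraries. Col6a2 (ENSMUSG00000020241) was at 16.3 and 7.97 TPM in control and at 10.7 and 14.4 TPM in exercise libraries. Each chain had its lowest value in control replicate 2, and the exercise values lay within or close to the range of the controls. The log2 fold changes were 0.13 (95% interval -0.66 to 0.92, adjusted p = 0.75, limma) for Col6a3, 0.39 (95% interval -0.35 to 1.14, adjusted p = 0.29) for Col6a1 and 0.11 (95% interval -0.65 to 0.86, adjusted p = 0.78) for Col6a2. After median-of-ratios scaling they turned to -0.48, -0.20 and -0.48, not called. Without control replicate 1 Col6a1 and Col6a3 were called higher, at 0.84 and 0.64 (adjusted p = 0.029 and 0.044, limma). The chains Col6a4, Col6a5 and Col6a6 can take the place of Col6a3 in the molecule, and they reached at most 0.06, 0.29 and 0.97 TPM. None of these was tested, and the groups did not overlap for Col6a6.

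**Figure D2:**
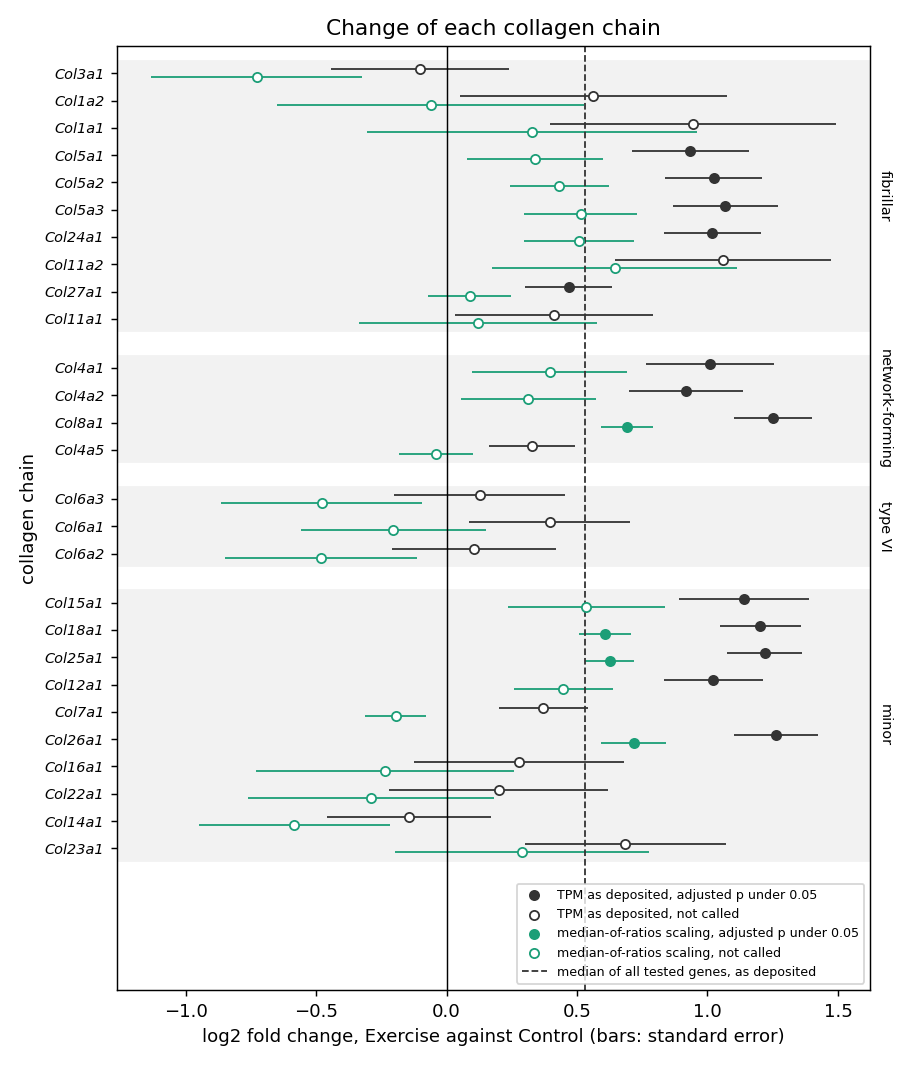
Log2 fold change of exercise against control for the 27 tested collagen chains, with the standard error as bars, for TPM as deposited (black) and after median-of-ratios scaling (green), where filled points passed an adjusted p under 0.05. The dashed line is the median of all tested genes at 0.53; 13 chains are filled in black and 4 in green, and all type VI chains lie left of the line.

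Among the minor collagens the multiplexins and several single chains rose. Col15a1 (ENSMUSG00000028339), which sits on the outer face of muscle and capillary basement membranes, was at 15.9 and 8.91 TPM in control and at 27.6 and 27.5 TPM in exercise libraries. Col18a1 (ENSMUSG00000001435), the basement membrane proteoglycan that releases endostatin, was at 8.63 and 10.5 TPM in control and at 21.7 and 24.8 TPM in exercise libraries. These are the chains with the endostatin domain. In both, the exercise libraries lay above the control libraries, which held for 72.8% of all tested genes. The log2 fold change was 1.14 (SE 0.249, adjusted p = 0.0095, limma) for Col15a1 and 1.20 (SE 0.156, adjusted p = 0.0030) for Col18a1, and after median-of-ratios scaling Col18a1 alone of them kept its call, at 0.61 (adjusted p = 0.017). Without exercise replicate 2 the call of Col15a1 was lost, at 1.14 (adjusted p = 0.057, limma).

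Of the 4 transmembrane collagens Col25a1 was called, and Col23a1 was the other tested chain. Col25a1 (ENSMUSG00000058897), a muscle membrane protein needed for motor axons to innervate muscle in the mouse, was at 8.58 and 10.1 TPM in control and at 22.4 and 23.6 TPM in exercise libraries. The difference was several times the spread within either group, and a call favors little spread. Its log2 fold change was 1.22 (SE 0.143, adjusted p = 0.0028, limma), and 0.62 after median-of-ratios scaling (adjusted p = 0.014). Of 6 neuromuscular junction markers 5 were also higher (4 after median-of-ratios scaling), against 55.3 and 10.6% of all tested genes, among them Chrna1, the alpha subunit of the acetylcholine receptor, at 68.5 and 84.1 TPM in control and at 197 and 221 TPM in exercise libraries, and Dok7, an adaptor of the receptor kinase MuSK, at 16.1 and 15.5 against 31.8 and 34.9 TPM. Col13a1, another transmembrane collagen of the junction, was at 0.90 and 0.41 TPM in control and at 0.96 and 0.99 TPM in exercise libraries, under the limit of the test. Col23a1 was at 2.26 and 0.49 TPM in control and at 3.32 and 1.91 TPM in exercise libraries, with overlap (adjusted p = 0.16), and Col17a1, of skin anchoring, did not exceed 0.23 TPM.

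Col26a1 (ENSMUSG00000004415), a small collagen with an EMI domain first described in testis and ovary of the mouse, had the highest log2 fold change of the tested chains. It was at 3.91 and 3.73 TPM in control and at 9.50 and 11.8 TPM in exercise libraries. No value of one group came near the other, as a call favors. The log2 fold change was 1.26 (SE 0.161, adjusted p = 0.0030, limma), and 0.72 after median-of-ratios scaling (adjusted p = 0.019). Col7a1, the anchoring fibril of skin, was at 6.44 and 7.60 TPM in control and at 8.32 and 10.5 TPM in exercise libraries. Its groups did not overlap, yet it was not called (limma log2 change 0.37, adjusted p = 0.099), and it turned to -0.20 after median-of-ratios scaling, likewise not called. Col10a1, of hypertrophic cartilage, and Col28a1, of nerve sheaths, stayed under 1 TPM in every library.

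The collagens that bind to the surface of fibrils (FACITs) were divided. Col12a1 (ENSMUSG00000032332), which links fibrils in tendon and muscle, was at 7.42 and 5.54 TPM in control and at 12.5 and 15.8 TPM in exercise libraries (limma log2 change 1.02, SE 0.190, adjusted p = 0.0059 from limma, and 0.45 after median-of-ratios scaling, not called). That call was lost without exercise replicate 2, at 0.86 (adjusted p = 0.052, limma). Col14a1, its relative in mature connective tissue, was at 3.56 and 1.48 TPM in control and at 1.61 and 2.55 TPM in exercise libraries. Col16a1, of fibroblasts and smooth muscle, was at 6.72 and 2.05 TPM in control and at 4.57 and 5.22 TPM in exercise libraries. Col22a1, which marks the junction of muscle and tendon, was at 4.61 and 1.86 TPM in control and at 2.23 and 5.55 TPM in exercise libraries. For the last 3 chains the groups overlapped and no call was made (log2 fold changes -0.14, 0.28 and 0.20). The type IX chains of cartilage together with Col19a1 and Col20a1 stayed under 1 TPM in every library.

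The spread within the groups was wide for many chains. Control replicate 1 was above control replicate 2 for 22 of 27 tested chains, but for 4148 of 13288 tested genes, and the ratio of control 1 to control 2 had a median of 1.74 over the chains and of 0.906 over all tested genes. For Col1a1, Col1a2, Col3a1 and the chains Col6a1, Col6a2 and Col6a3 the ratio lay between 1.94 and 2.92. It was 0.85 for Col25a1, 0.87 for Col8a1, 0.82 for Col18a1 and 1.05 for Col26a1, the 4 chains that were called under both scalings. A call needs little spread within the groups, so ratios near 1 follow in part from how these 4 were picked. The exercise libraries differed as well, with replicate 2 above replicate 1 for 21 of 27 chains and a ratio of 2.38 for Col1a1.

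Markers of connective tissue cells varied between the libraries too. The 10 FAP markers summed to 483 and 269 TPM in control and to 270 and 322 TPM in exercise libraries. Of 9 tested 0 were called, with 0 higher and 1 lower at an unadjusted p under 0.05 in limma. Limma without a trend and limma with robust settings each called 1 lower. After median-of-ratios scaling Gsn (-1.20, adjusted p = 0.031, limma) and Pdgfra (-1.002, adjusted p = 0.037) were called lower, 2 of 9 against 16.8% of all tested genes. Dcn, the proteoglycan decorin, was at 158 and 78.0 against 87.9 and 111 TPM, and Gsn, gelsolin, at 140 and 96.0 against 65.2 and 93.6 TPM. The 7 tenocyte markers summed to 63.5 and 16.9 TPM in control and to 45.8 and 80.4 TPM in exercise libraries, in the same order of libraries as Col1a1, Col1a2 and Col11a1. Among them Thbs4, a matrix protein of tendon, was at 21.6 and 3.65 TPM in control and at 5.64 and 13.1 TPM in exercise libraries. Scx, the transcription factor of tendon cells, rose from 6.90 and 8.79 to 19.9 and 27.2 TPM. Of 6 tested tenocyte markers Scx and Cilp2 were called higher (33.3%, against 55.3% of all tested genes). After median-of-ratios scaling Scx kept its call and Cilp2 did not (0.70, adjusted p = 0.086, limma). For Thbs4, Tnmd, Fmod and Kera the groups overlapped and no call was made. The 8 endothelial markers summed to 102 and 68.1 TPM in control and to 125 and 154 TPM in exercise libraries, with 2 of 8 called higher, against 55.3% of all tested genes. After median-of-ratios scaling 0 of these were higher, also at an unadjusted p under 0.05 in limma. Kdr, 1 of 8, was lower (-0.63, adjusted p = 0.037, limma), against 16.8% of all tested genes. The highest endothelial markers were Egfl7, at 39.8 and 26.6 against 59.2 and 88.7 TPM, and Pecam1, at 19.8 and 13.03 against 22.1 and 18.7 TPM. Of 6 smooth muscle and pericyte markers 5 were tested. Acta2 (269 and 323 against 754 and 871 TPM) and Tagln were called higher, which is 40% against 55.3% of all tested genes. After median-of-ratios scaling Acta2 kept its call and Tagln did not (0.21, adjusted p = 0.40, limma). Rgs5, which was not called, stood at 66.4 and 31.7 against 43.6 and 50.7 TPM. The 6 adipocyte markers summed to 61.5 and 272 TPM in control and to 1.26 and 11.5 TPM in exercise libraries. All 5 tested were lower, against 6.19% of all tested genes (Cfd at 38.9 and 174 against 0.80 and 8.24 TPM, Adipoq at 8.06 and 38.4 against 0.21 and 1.43 TPM). After median-of-ratios scaling 4 adipocyte markers were lower, against 16.8% of all tested genes. In contrast, limma with robust settings called 0 of the adipocyte markers, and 0 had an unadjusted p under 0.05 there. Of 7 macrophage markers 6 were tested, and Lyz2 alone was called lower, at 28.7 and 23.5 against 8.95 and 13.5 TPM (6.19% of all tested genes were lower). C1qa stood at 8.64 and 5.30 against 3.74 and 5.64 TPM. Of 9 markers of cartilage and bone the highest were Sox9 (0.86 and 1.03 against 2.33 and 2.53 TPM) and Runx2 (0.52 and 1.33 against 2.28 and 2.23 TPM), the 2 that were tested. Both were called higher as deposited, against 55.3% of all tested genes, and neither after median-of-ratios scaling. The part of these cells in the collagen values was not tested.

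**Figure D3:**
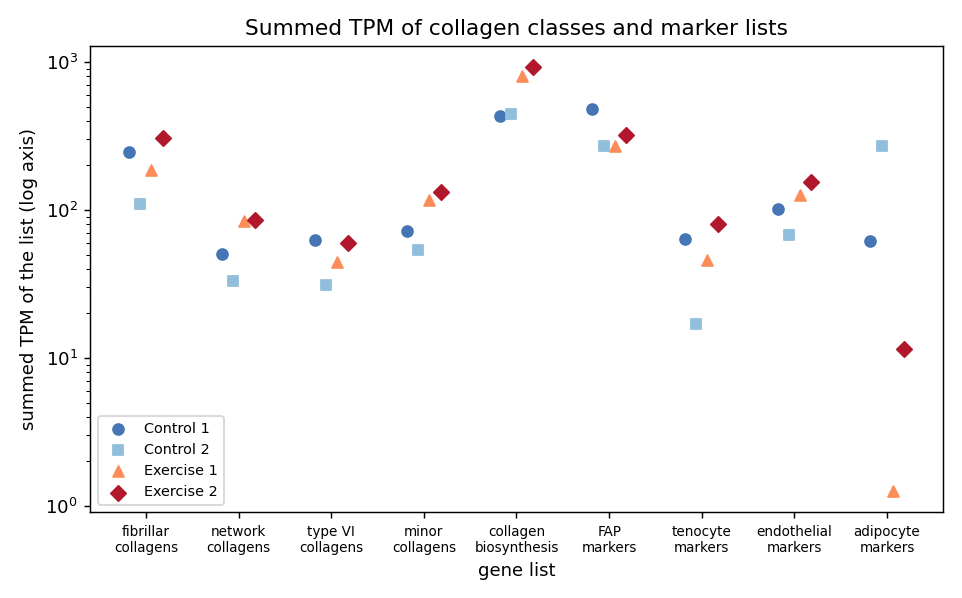
Summed TPM (log axis) of the collagen classes, the collagen biosynthesis list and 4 marker lists in each of the 4 libraries. The fibrillar sum has the same order of libraries as the tenocyte sum, which is lowest in control 2 (16.9 TPM) and highest in exercise 2 (80.4 TPM). The type VI sum has the order of the FAP sum, lowest in control 2 and highest in control 1. The endothelial sum is also lowest in control 2. The biosynthesis sum is nearly equal in the control libraries (433 and 443 TPM) and higher in both exercise libraries.

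The 44 chains together summed to 431 and 228 TPM in control and to 433 and 583 TPM in exercise libraries. Fibrillar chains held 57.1 and 48.2% of this sum in control and 43.3 and 52.3% in exercise libraries, with overlap. Type VI held 14.5 and 13.6% in control and 10.3 and 10.3% in exercise libraries, so that its share was lower in both exercise libraries. Network-forming chains held 11.8 and 14.5% in control and 19.3 and 14.7% in exercise libraries. These shares do not depend on how a library was scaled.

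Ratios between chains within a library are free of scaling too, and some of them were tighter than the levels. Col4a1 to Col4a2 stood at 1.60 and 1.48 in control and at 1.69 and 1.57 in exercise libraries, while the level of Col4a1 itself ranged from 15.7 to 43.4 TPM. Col5a1 to Col5a2 was at 1.28 and 1.06 in control and at 1.15 and 1.01 in exercise libraries. In these pairs the groups overlapped. Col1a1 to Col1a2 was at 0.69 and 0.64 in control and at 0.84 and 0.91 in exercise libraries. Col6a1 to Col6a2 was at 1.15 and 1.21 in control and at 1.43 and 1.49 in exercise libraries. Col6a1 to Col6a3 was at 0.70 and 0.76 in control and at 0.86 and 0.92 in exercise libraries. In these pairs the groups did not overlap. Col1a1 to Col1a2, Col4a1 to Col4a2, Col5a1 to Col5a2 and the Col6a1 pairs are chains of the same molecule, and 5 further pairs were chosen after their values were seen. Col6a2 to Col6a3 ranged from 0.60 to 0.62 over all 4 libraries, and Col5a1 to Col1a1 was at 0.32 and 0.57 in control and at 0.64 and 0.29 in exercise libraries, so both overlapped between groups. Col3a1 to Col1a1 was at 2.46 and 3.34 in control and at 1.84 and 1.00 in exercise libraries, Col4a1 to Col6a1 at 1.45 and 1.63 against 2.85 and 1.97, and Col4a1 to Col15a1 at 1.72 and 1.77 against 1.57 and 1.54, without overlap. No test was made of any ratio, and how often other pairs of genes separate the groups was not tested. With 2 libraries per group an exact permutation p cannot fall below 0.333. The Col6a1 ratios are not separate observations, since Col6a2 to Col6a3 hardly varied.

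**Figure D4:**
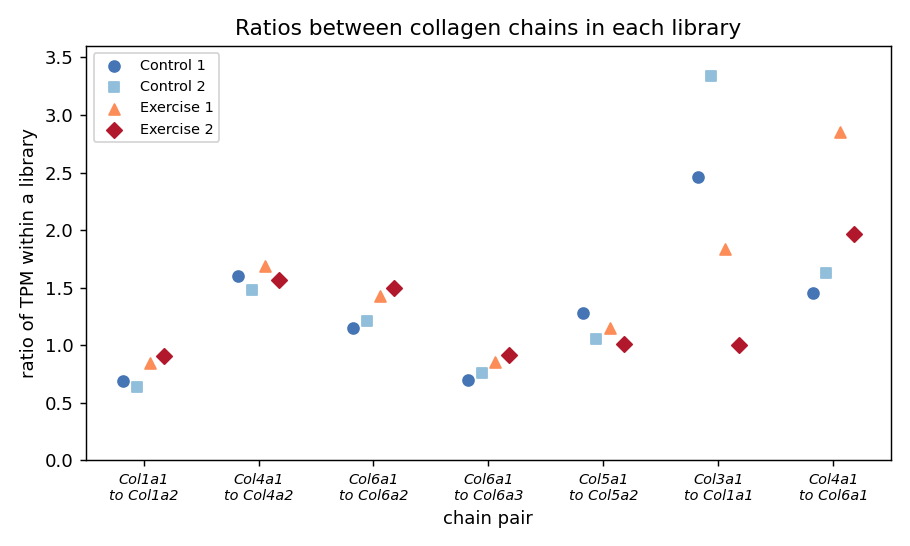
Ratio of TPM between 2 collagen chains within each library, for 7 pairs (4 symbols each, 1 per library). Col4a1 to Col4a2 and Col5a1 to Col5a2 overlap between groups, whereas Col1a1 to Col1a2 and both Col6a1 ratios are higher in both exercise libraries and Col3a1 to Col1a1 is lower.

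Most tested genes that make, fold, trim and cross-link collagen rose. Of 31 such genes 26 were tested, 20 rose and 0 fell (76.9% higher against 55.3% of all tested genes), with a median log2 fold change of 0.96. At an unadjusted p under 0.05 limma gave 22 higher and 0 lower, and limma with robust settings called 22 higher and 0 lower. Under the median-of-ratios scaling 9 were higher and 1 lower (34.6% higher against 10.6%). The list was chosen with earlier results of these data known. Serpinh1, the chaperone HSP47 that binds the finished triple helix in the endoplasmic reticulum, was at 78.6 and 80.6 TPM in control and at 179 and 196 TPM in exercise libraries. Its control libraries differed by little where those of Col1a1 differed by 2.92 times. Over all tested genes the ratio of control 1 to control 2 had a median of 0.906. Serpinh1 was named in part for its small p, which needs little spread within the groups. The log2 fold change was 1.22 (SE 0.120, adjusted p = 0.0028, limma), and 0.59 after median-of-ratios scaling (adjusted p = 0.010). Ppib, the cyclophilin that helps the helix to fold, was at 61.1 and 59.1 TPM in control and at 127 and 145 TPM in exercise libraries (1.17, SE 0.127, adjusted p = 0.0028, and 0.54 after scaling, called).

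The other genes of the list that follow were picked with their values in view. Of the lysyl hydroxylases, which prepare cross-links, Plod2 had a log2 change of 1.28 (adjusted p = 0.0028, limma), against 0.46 for Plod1 and 0.47 for Plod3 (adjusted p = 0.030 and 0.046), whose values turned to -0.13 and -0.12 after median-of-ratios scaling, not called. Plod2 was at 10.4 and 12.1 TPM in control and at 27.8 and 29.3 TPM in exercise libraries and kept its call after median-of-ratios scaling. P3h4, a partner of the hydroxylases, had the highest log2 fold change of the list, from 6.64 and 7.16 to 18.2 and 22.7 TPM (1.43, adjusted p = 0.0028). The prolyl hydroxylase subunits P4ha1 and P4ha2, which stabilize the helix, were higher as well, at 0.86 and 1.05 (after scaling P4ha2 kept its call and P4ha1 did not, at 0.24 with adjusted p = 0.082, limma), whereas their shared subunit P4hb was at 75.8 and 92.4 TPM in control and at 104 and 118 TPM in exercise libraries and was not called (adjusted p = 0.052). Lox and Loxl1, oxidases that cross-link collagen and elastin, had log2 fold changes of 0.97 and 1.07, and after scaling Loxl1 kept its call and Lox did not (0.40, adjusted p = 0.11, limma). Adamts2, which cuts the N-terminal propeptide of fibrillar procollagens, was at 2.14 and 2.89 TPM in control and at 1.85 and 2.11 TPM in exercise libraries (-0.23, adjusted p = 0.29). Adamts2 was the member called lower after median-of-ratios scaling, at -0.67 (adjusted p = 0.033), whereas its relative Adamts14 was higher, at 1.26 and, after scaling, 0.78 (adjusted p = 0.015).

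The 17 chains below the limit of the test were low in every library, with a highest value of 0.99 TPM in Col13a1, and none was listed at 0 in all 4 libraries. Col6a4 was the only chain listed at 0 in any library, in control 2 and exercise 2. Col6a6 was at 0.38 and 0.22 TPM in control and at 0.97 and 0.78 TPM in exercise libraries, and Col9a2 at 0.04 and 0.02 against 0.16 and 0.32 TPM. The depth of the libraries is unknown, so a difference at this level could not be judged. Exons of 13 of the 44 chains overlap those of another gene in GENCODE vM21. Of the chains called, Col4a1 and Col4a2 share 22 bases with each other on opposite strands. Col4a2 also shares 43 bases with an antisense gene that reached at most 0.11 TPM. Col15a1 shares 14 bases with an antisense gene listed at 0 in all libraries. Col5a1 shares 99 and 113 bases with transcripts of the opposite strand that reached at most 0.29 TPM. Col3a1 shares 141 bases with a miRNA gene that was not matched in the table. Whether strand was used in counting is unclear, as the sources name different kits.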

How the data were processed

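RNA of TA muscle was sequenced in 2 control and 2 exercise libraries. The authors deposited TPM for 57180 genes, rounded to 2 decimals. Per the submitters' processing notes, the tools were StringTie, HISAT2 and fastp, with GRCm39 and no versions, and the paper names SeqPrep, Sickle and DEGseq. The labels give a stranded library kit and the paper another kit. TPM keeps no counts, so the depth is unknown, no counting interval could be given, and DEGseq was not run. Since TPM has a fixed total, less of an abundant transcript means higher values elsewhere.

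Groups were compared with limma 3.58.1 in R 4.3.3 on log2(TPM + 1), with a trend and no covariate, for genes of at least 1 TPM in at least 2 libraries. This scale understates the change of low genes. The fit was also run on simulated data with independent noise and a small set of genes changed in both directions. Most genes differed between these groups, so that run does not bear on the calls here. Named are the chains with a mean of at least 5 TPM or a call, in the biosynthesis list the 2 genes of smallest p and the 2 of highest mean, which were the same 2 genes,, and in each marker list the 2 highest. Other named genes were chosen after their values were seen. Members and lists were chosen with earlier results of these data known. Alternatives were pseudocounts of 0.1 and 0.01, other filters, scalings and eBayes settings, each library left out, and a replicate block. Protein sequences were not used here. The Schwann cell marker list is not reported here. Tables and figures came from Python 3.11.15 with pandas 2.3.3 and matplotlib 3.10.9.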

Additional observations from a re-analysis of the deposited data

How the results depend on the processing

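The count of 13 chains higher in exercise was 4 with median-of-ratios scaling, 4 with quantile values, 4 without the 50 highest genes and 8 without a filter on low values, where more genes were tested. All genes were called higher at 10.6, 16.4, 25.9 and 16.7% in these settings, against 14.8% of the tested chains in the first 3 and 18.2% of the 44 chains without the filter. The 4 chains were the same under the 3 scalings, namely Col8a1, Col18a1, Col25a1 and Col26a1. With each library left out it ranged from 5 (without exercise replicate 2) to 18 (without control replicate 1, where Col1a1, Col6a1, Col6a3, Col11a2, Col16a1 and Col23a1 were gained and Col27a1 lost), and the count of lower chains from 0 to 1, which was Col3a1 without control replicate 2. In these fits the lone library of a group is assumed to vary like the others. The 20 biosynthesis genes that were higher became 9 with median-of-ratios scaling and 11 with quantile values, each with 1 lower, of 26 tested. In these 2 settings 10.6 and 16.4% of all tested genes were higher and 16.8 and 13.2% lower.

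Among the named chains signs turned, never with a call, for Col1a2 (-0.061), Col7a1 (-0.20), Col6a1 (-0.20), Col6a2 (-0.48) and Col6a3 (-0.48) after median-of-ratios scaling, for Col7a1 (-0.15), Col6a1 (-0.13), Col6a2 (-0.43) and Col6a3 (-0.39) after quantile normalization, and for Col6a2 (-0.27) and Col6a3 (-0.26) without the 50 highest genes. Of the other tested chains, Col16a1 (-0.24), Col22a1 (-0.29) and Col4a5 (-0.041) also turned after median-of-ratios scaling, and the first 2 with quantile values. The cause was not tested. With each library left out the log2 fold change ranged from -0.65 to 0.45 for Col3a1, from -0.14 to 1.26 for Col1a2, from -0.051 to 0.84 for Col6a1, from -0.37 to 0.58 for Col6a2 and from -0.38 to 0.64 for Col6a3. With the replicate number as a block (replicate block) 13 chains were higher (48.1%), Col23a1 in place of Col27a1. So were 21 of 26 tested biosynthesis genes, and 55.7% of all tested genes. Same-numbered libraries did not deviate together (correlation of deviations -0.05 over genes). Among the chains, other pseudocounts changed the call of Col27a1 alone. The search for Gly-X-Y runs was not run, since protein sequences were not used here. With 2 libraries per group, differences smaller than the spread between control libraries of types I, III and VI could not be shown.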
